A study of Mus musculus with 4 samples.

Results

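The genes described here are the coactivators *Yap1* and *Wwtr1* (which encodes TAZ), their DNA-binding partner *Tead1*, and 7 genes known as their targets or regulators: *Cyr61*, *Ctgf*, *Ankrd1*, *Axl*, *Amotl2*, *Lats2* and *Ajuba*. They were chosen by gene symbol, and the rows of all 10 were found among 48587 gene rows. *Cyr61* and *Ctgf* are the older symbols of *Ccn1* and *Ccn2*. The row named *Taz* in the same table is the tafazzin gene and was not used. The libraries were made from primary mouse VSMCs (vascular smooth muscle cells) that had grown out of the stripped descending aorta of adult wild-type C57BL/6J mice and had been passaged in serum. All cultures carried a lentivirus. The 2 shCTR libraries came from cells with a hairpin against a plant microRNA sequence, and the 2 shMettl14 libraries from cells with a hairpin against *Mettl14*, a subunit of the enzyme complex that writes the N6-methyladenosine mark on mRNA. Each group holds 1 library with the letter A and 1 with the letter B. Whether the letters mark separate animals or cultures was not given in the sources used here, so p-values measure only the spread between these libraries.

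YAP and TAZ are the nuclear effectors of the Hippo pathway. When the MST and LATS kinases are active, they phosphorylate YAP and TAZ, which are then held in the cytoplasm or degraded. When the kinases are inactive, for example in spread cells under tension on a stiff matrix, YAP and TAZ enter the nucleus, bind TEAD factors and switch on genes for matricellular proteins, cytoskeletal regulators and several of their own inhibitors. In vascular smooth muscle the pathway is known for its part in growth and in the shift from the contractile to the synthetic state. Its activity is set mainly at the protein level, which these libraries do not measure.

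TEAD factors recognise the word CATTCC, which reads GGAATG on the other strand. Promoters from RefSeq (GRCm38.p6, 250 bases before to 50 bases after the start site) were matched for 8 of the 10 genes, all but *Ctgf* and *Tead1*. All 8 held this word in at least 1 promoter, whereas 16.6% of 27025 genes did. Of 23 other Hippo pathway genes that were matched, 8 (34.8%) held it, and of 10 further YAP/TAZ target genes 2 (20%). The AP-1 word TGANTCA and the CArG box, which SRF binds, were found in 0 of the 8, against 8.97% and 1.81% of all genes (both strands searched). A match of letters is a description and shows no binding. The windows below, 30 bases each and 5′ to 3′ along the gene, are shown because they hold the sequence feature that the 8 matched genes share, with the TEAD word in capitals.
*Ankrd1*, word from 210 bases before the start site (chr19:36120037-36120066, minus strand): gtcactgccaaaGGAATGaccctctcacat
*Ankrd1*, word from 123 bases before it (chr19:36119950-36119979, minus strand): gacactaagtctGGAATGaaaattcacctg
*Cyr61* (chr3:145650071-145650100, minus strand): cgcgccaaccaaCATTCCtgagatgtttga
*Amotl2* (chr9:102717727-102717756, plus strand): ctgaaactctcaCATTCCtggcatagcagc
*Ajuba* (chr14:54577819-54577848, minus strand): aCATTCCacagtgcccctccgcgCATTCCa
*Axl* (chr7:25788949-25788978, minus strand): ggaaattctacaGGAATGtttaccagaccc
*Yap1* (chr9:8004720-8004749, minus strand): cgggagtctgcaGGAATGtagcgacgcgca
*Wwtr1* (chr3:57576029-57576058, minus strand): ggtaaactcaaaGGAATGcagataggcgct
By the GENCODE M21 annotation the *Yap1*, *Wwtr1*, *Cyr61*, *Axl* and *Ajuba* windows lie outside any exon and any gene, while the *Ankrd1* and *Amotl2* windows lie in exons of transcripts of the same gene that start further upstream. *Lats2* carries the word in 1 of its 2 promoters, from base 5 after the start site, in an exon that it shares with *Gm49361*. *Ajuba* and *Ankrd1* each hold it more than once.

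The targeted gene was checked first. *Mettl14* had 2050 and 2154 counts in shCTR A and B and 546 and 568 counts in shMettl14 A and B, so that the level with shMettl14 was 23.6% of that with shCTR. The 4 libraries held from 114343653 to 124815868 counts, and the 10 genes together took between 0.655% and 0.889% of them. Log2 CPM (CPM is the count scaled to library size, here with edgeR's TMM factors) correlated more closely across genes between libraries of one letter (Pearson's r 0.985 for the A libraries, 0.977 for the B libraries) than between those of one hairpin (0.953 with shCTR, 0.969 with shMettl14). The label was checked against marker genes. The summed CPM of 8 smooth muscle markers (*Acta2*, *Tagln* and others, by library total) was 7273 and 5933 with shCTR A and B and 4975 and 5460 with shMettl14 A and B. The endothelium had been scraped off before plating, per the study's methods. Endothelial markers were nevertheless present, at very unequal levels. *Emcn* had 501 to 1983 CPM, *Pecam1* 467 to 775, *Cdh5* 498 to 772, *Tie1* 129 to 168 and *Erg* 85.5 to 146. By contrast, *Vwf* had 17.0 to 19.3 CPM, *Tek* 4.94 to 10.3 and *Kdr* 4.96 to 9.21. The sum of 8 such markers was 1881 and 3842 CPM with shCTR and 1876 and 2628 CPM with shMettl14, and none of the 8 was at 0 in any library. *Emcn* was the largest part of the sum in the B libraries, at 1983 CPM in shCTR B and 1122 CPM in shMettl14 B. The 8 leukocyte markers summed to 12.4 to 17.3 CPM. In bulk libraries such as these, fewer cells of a type and less RNA per cell cannot be told apart.

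All 10 genes passed the filter on low counts. To set levels of different genes beside each other, CPM were divided by the exon length in kilobases (GENCODE M21). *Cyr61* (1030 CPM per kb, mean of 4 libraries) and *Ctgf* (985) stood highest, and their ranges over the libraries overlapped. Their order differed between the groups, with *Ctgf* at 1199 and *Cyr61* at 1144 in shCTR, and *Ctgf* at 771 and *Cyr61* at 916 in shMettl14. *Ankrd1* (184) and *Axl* (125.2) followed. *Ankrd1* was clear of *Axl* in shCTR (232 to 262 against 105 to 140) and overlapped it in shMettl14 (118 to 123 against 111 to 145). Below them stood *Amotl2* (83.7) and *Wwtr1* (72.8), and then *Lats2* (34.9, uncertain because of an overlapping gene named further on), *Tead1* (25.7), *Yap1* (23.8) and *Ajuba* (18.1). The range of all 4 libraries separated *Ctgf* from *Ankrd1*, *Axl* from *Amotl2* and *Wwtr1* from *Lats2*, while every other pair of neighbours in this order overlapped. By level in CPM, *Ctgf* ranked 18 and *Cyr61* ranked 36 among 18916 genes tested.

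**Figure D1:**
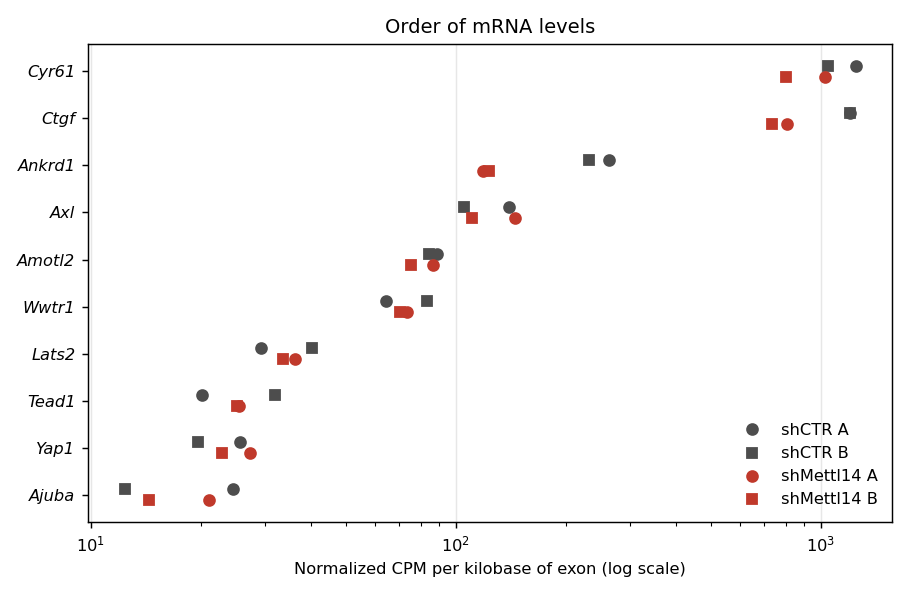
Each point is 1 library; the horizontal axis is the TMM-normalized CPM per kilobase of exon on a log scale, and the genes are ordered by their mean over the 4 libraries. *Cyr61* and *Ctgf* lie at 735 CPM per kb or more in every library, and the 2 red shMettl14 points of *Ctgf* and of *Ankrd1* lie to the left of the 2 grey shCTR points.

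The comparison of shMettl14 with shCTR asks how these mRNAs differ when *Mettl14* is reduced. The targets *Ankrd1* and *Ctgf* had the lowest values relative to shCTR, at 48.9% and 64.3% of its level, *Cyr61* was at 80.1%, and the other 7 genes lay between 93.4% (*Amotl2*) and 111% (*Yap1*). No gene passed the main test. Adjusted by Benjamini-Hochberg over 18916 genes, the quasi-likelihood p of edgeR was under 0.05 for 0 genes (0%), and it was 1 for each of the 10 genes. The targeted gene *Mettl14* did not pass this test either, so missing the threshold does not show that a gene was unchanged. *Mettl14* did pass DESeq2's Wald test (adjusted p 3.05e-07) and edgeR's test with the letters taken as pairs (adjusted p 0.00393). At an unadjusted p under 0.05 in the main test, 2 of the 10 genes were lower, *Ankrd1* and *Ctgf*, and 0 were higher. Of all tested genes 1.01% were lower and 0.656% higher at this threshold. Of the 1997 genes with a mean of at least 100 CPM, 55 were lower and 3 higher. DESeq2's Wald test gave 5 genes at an adjusted p under 0.05, none of them among the 10, and it gave *Ankrd1* and *Ctgf* at an unadjusted p under 0.05. With 2 libraries in each group, the smallest two-sided p that an exact permutation test allows is 0.333.

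**Figure D2:**
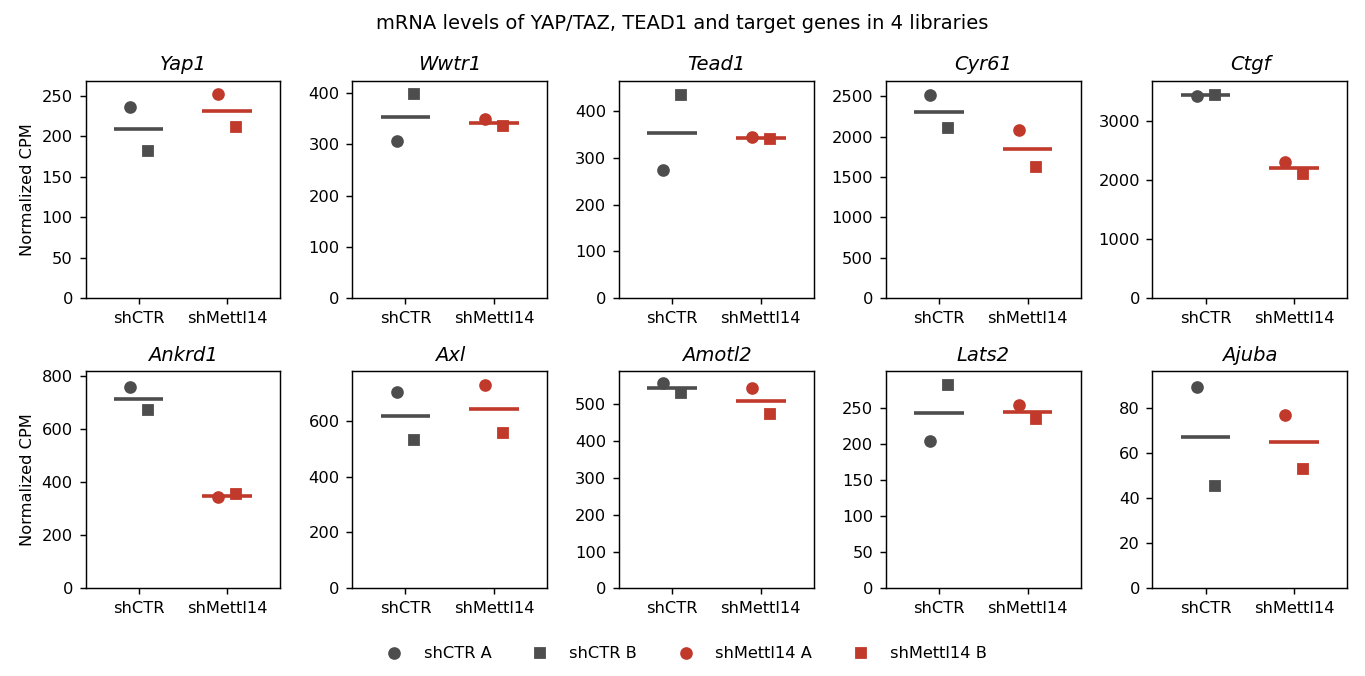
Normalized CPM of each gene in the 4 libraries, with circles for letter A, squares for letter B and a bar at the mean of the 2 libraries of a group; each vertical axis starts at 0. The groups do not overlap for *Cyr61*, *Ctgf* and *Ankrd1*, and they overlap for the other 7 genes.

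*Ankrd1* (ENSMUSG00000024803), on chromosome 19 of GRCm38 from 36111961 to 36120099 (minus strand), encodes an ankyrin repeat protein that acts in the nucleus and at the sarcomere, and its mRNA is a common readout of YAP activity. It had 756 and 670 CPM in shCTR A and B and 342 and 356 CPM in shMettl14 A and B. Both shMettl14 libraries were thus below both shCTR libraries, and the 2 shMettl14 values lay close together. The means were 713 ± 61.4 CPM with shCTR and 349 ± 9.77 CPM with shMettl14 (SD, n = 2 libraries each). On the log2 scale the difference was −1.03 with a standard error of 0.19 and an unadjusted edgeR p of 0.0029, and the A and B pairs gave −1.15 and −0.91. Among the 1997 genes with a mean of at least 100 CPM, 3 had a lower log2 fold change, namely *Atp6v1a*, *Gm10736* and *Kdelr2*, which were named after their values were seen. *Ankrd1* stayed between −1.12 and −0.94 with each library left out in turn, and its unadjusted p was under 0.05 in each of these fits.

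*Ankrd1* is also abundant in striated muscle, so markers of that tissue are given beside it. The summed level of 12 striated muscle markers was 28.9 and 14.3 CPM (by library total) in shCTR A and B and 8.08 and 9.22 CPM in shMettl14 A and B, so it was lower with shMettl14 as *Ankrd1* was. Of the 12 markers 7 were at 0 in at least 1 library, and the cardiac myosin gene *Myh6* had 470 counts in shCTR A and 0 counts in the other 3 libraries. In letter B the largest marker was *Tnnt2*, with 9.35 CPM in shCTR and 6.73 CPM in shMettl14. *Myh7*, *Mb*, *Myh1* and *Myh2* were higher in shMettl14 B than in shCTR B, at 22 counts or fewer. Without shCTR A, the library with the highest sum, the log2 fold change of *Ankrd1* was −0.94. The smooth muscle sum given above was also lower in both shMettl14 libraries, but by library total its markers were split within letter B. There *Acta2* had 2644 CPM in shCTR and 2160 CPM in shMettl14, and *Myl9*, *Myh11*, *Cnn1* and *Des* were also lower. *Tagln* (2314 and 2349 CPM), *Smtn* (160 and 165) and *Lmod1* (103 and 130) were higher in shMettl14 B than in shCTR B. Relative to library totals, the TMM scaling used for *Ankrd1* lowered the log2 ratios within B by 0.141. With TMM, *Tagln* and *Smtn* were thus also lower in shMettl14 B, while *Lmod1* stayed higher (log2 ratio 0.19). The part of either marker group in these results was not tested.

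*Ctgf* (ENSMUSG00000019997, chromosome 10 from 24595442 to 24598683) and *Cyr61* (ENSMUSG00000028195, chromosome 3 from 145646976 to 145649981, minus strand) encode secreted matricellular proteins that bind integrins and growth factors, and they are the most used readouts of YAP/TAZ with TEAD. *Ctgf* had 3428 and 3432 CPM in shCTR A and B and 2307 and 2104 CPM in shMettl14 A and B. The 2 shCTR libraries were nearly equal, and both shMettl14 libraries were below them. The means were 3430 ± 2.75 CPM and 2206 ± 144 CPM (SD, n = 2 libraries each), a log2 fold change of −0.64 (standard error 0.18) with −0.57 within A and −0.71 within B. Its unadjusted p was 0.017 in edgeR, and it was no longer under 0.05 when either shMettl14 library was left out, although the log2 fold change stayed between −0.70 and −0.57. Of the *Ctgf* exon bases 23.2% overlap *Gm15270* on the other strand, a gene with 12 to 25 counts, and whether the counting used strand was not given in the sources used here.

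*Cyr61* had 2515 and 2104 CPM in shCTR A and B and 2075 and 1624 CPM in shMettl14 A and B. The groups did not overlap, but the gap between shCTR B and shMettl14 A was small. The means were 2310 ± 291 CPM and 1850 ± 319 CPM (SD, n = 2 libraries each), which gives −0.32 on the log2 scale with a standard error of 0.22 and an unadjusted edgeR p of 0.21. The A pair gave −0.28 and the B pair −0.37. Without shMettl14 B the log2 fold change was −0.15 and without shCTR A it was −0.18, while without shMettl14 A it was −0.51. There were 1.36 and 1.63 *Ctgf* counts per *Cyr61* count in shCTR A and B and 1.11 and 1.30 in shMettl14 A and B, so this ratio was lower with shMettl14 within each letter.

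The other 4 members of the CCN family, to which *Cyr61* and *Ctgf* belong, are given for comparison. Of these, *Nov* and *Wisp2* varied widely between libraries and *Wisp3* was low. *Nov* (CCN3) had 97.7 and 29.4 CPM in shCTR A and B and 127 and 65.7 CPM in shMettl14 A and B, a log2 fold change of 0.60 (standard error 0.64) that became −0.03 without shCTR B. *Wisp2* (CCN5) had 800 and 228 CPM with shCTR and 744 and 328 CPM with shMettl14, so that it differed between the letters far more than between the hairpins. *Wisp1* (CCN4) had 164 and 136 CPM in shCTR A and B and 184 and 133 CPM in shMettl14 A and B. The log2 fold change of *Wisp1* was 0.08 (standard error 0.25). *Wisp3* (CCN6) had 7 to 19 counts per library, near the limit of 3 counts that a count of 0 allows, and its log2 fold change was −0.49 (standard error 0.86). None of these 4 passed the test, and whether they differ from *Ctgf* in response was not tested.

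For both coactivators and for *Tead1*, the group means lay within the spread of the shCTR libraries. *Yap1* (ENSMUSG00000053110), on chromosome 9 from 7931999 to 8004596 (minus strand), had 237 and 182 CPM in shCTR A and B and 252 and 211 CPM in shMettl14 A and B. It was higher with shMettl14 within each letter, by 0.09 and 0.21 on the log2 scale, but the groups overlapped. The fitted log2 difference was 0.15 with a standard error of 0.23, and it became −0.03 without shCTR B. *Wwtr1* (ENSMUSG00000027803), on chromosome 3 from 57455649 to 57575910 (minus strand), had 307 and 399 CPM in shCTR A and B and 350 and 335 CPM in shMettl14 A and B. The 2 shMettl14 values lay between those of shCTR, and the log2 fold change was −0.04 (standard error 0.22). There were 1.30 and 2.19 *Wwtr1* counts per *Yap1* count in shCTR A and B and 1.39 and 1.59 in shMettl14 A and B.

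*Tead1* (ENSMUSG00000055320, chromosome 7 from 112679318 to 112906807) had 274 and 435 CPM in shCTR A and B and 346 and 341 CPM in shMettl14 A and B. As with *Wwtr1*, the values with shMettl14 were nearly equal and lay between those with shCTR. The fitted log2 difference was −0.04 with a standard error of 0.28, and the ratios had opposite signs, 0.34 within A and −0.35 within B. *Tead1* was the most abundant of the TEAD genes per length in shCTR, with 26.1 ± 8.39 CPM per kb against 13.8 ± 2.55 for *Tead2*, 7.11 ± 3.22 for *Tead3* and 2.10 ± 0.326 for *Tead4* (SD, n = 2 libraries each). Log2 fold changes of these paralogs were −0.13 (*Tead2*), −0.03 (*Tead3*) and 0.16 (*Tead4*), each smaller than its standard error, and that of *Tead4* was 0.0019 without shCTR B.

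*Axl*, *Amotl2*, *Lats2* and *Ajuba* are also counted among YAP/TAZ targets or regulators. *Axl* (ENSMUSG00000002602), a receptor tyrosine kinase for GAS6, had 704 and 529 CPM in shCTR A and B and 729 and 557 CPM in shMettl14 A and B. Its levels followed the letter rather than the hairpin, and the log2 fold change was 0.06 (standard error 0.25). *Amotl2* (ENSMUSG00000032531), an angiomotin that holds YAP in the cytoplasm, had 558 and 532 CPM in shCTR A and B and 544 and 473 CPM in shMettl14 A and B. The fitted log2 difference was −0.10 with a standard error of 0.19, and the ratio within A (−0.03) became 0.05 when library totals were used for scaling.

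*Lats2* (ENSMUSG00000021959), one of the kinases that phosphorylate YAP and TAZ, had 204 and 282 CPM in shCTR A and B and 253 and 235 CPM in shMettl14 A and B. The fitted log2 difference was 0.01 with a standard error of 0.24, and it took the other sign with RLE factors (−0.0015). In GENCODE M21 42.4% of the *Lats2* exon bases overlap *Gm49361* on the same strand. The study names an Ensembl release for its mapping, and overlaps in that release were not checked here. The level of *Lats2* is therefore uncertain. *Ajuba* (ENSMUSG00000022178), a LIM protein that inhibits LATS kinases, had 89.4 and 45.2 CPM in shCTR A and B and 77.0 and 52.8 CPM in shMettl14 A and B. The fitted log2 difference was −0.05 with a standard error of 0.40, and the A and B pairs differed in sign (−0.21 and 0.22). For these 4 genes the groups overlapped, and the difference was smaller than the standard error.

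Of the 10 genes, 4 were lower within both letters (*Cyr61*, *Ctgf*, *Ankrd1* and *Amotl2*) and 2 were higher within both (*Yap1* and *Axl*), against 27.7% and 30% of all tested genes. For 3 genes the groups did not overlap and shMettl14 was lower, and for 0 genes it was higher without overlap, against 13.3% and 14.7% of all tested genes. Among the 1997 genes over 100 CPM, which are closer in level to these 10, 42% were lower within both letters and 22.8% were lower without overlap, so the shares of the 10 genes (40% and 30%) were near those of other abundant genes. The median log2 fold change of the 10 genes was −0.05, that of the genes over 100 CPM was −0.09 and that of all tested genes 0.01. By the size of the log2 fold change, 3 of the 1997 genes were lower than *Ankrd1* and 43 lower than *Ctgf*, compared with 346 below *Cyr61* and 952 below *Amotl2*. In 2 of the 10 genes, *Ankrd1* and *Ctgf*, the log2 ratio within each letter exceeded in size the gap between letters within either hairpin. The same held for 11.1% of all tested genes and for 14.2% of the genes over 100 CPM.

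**Figure D3:**
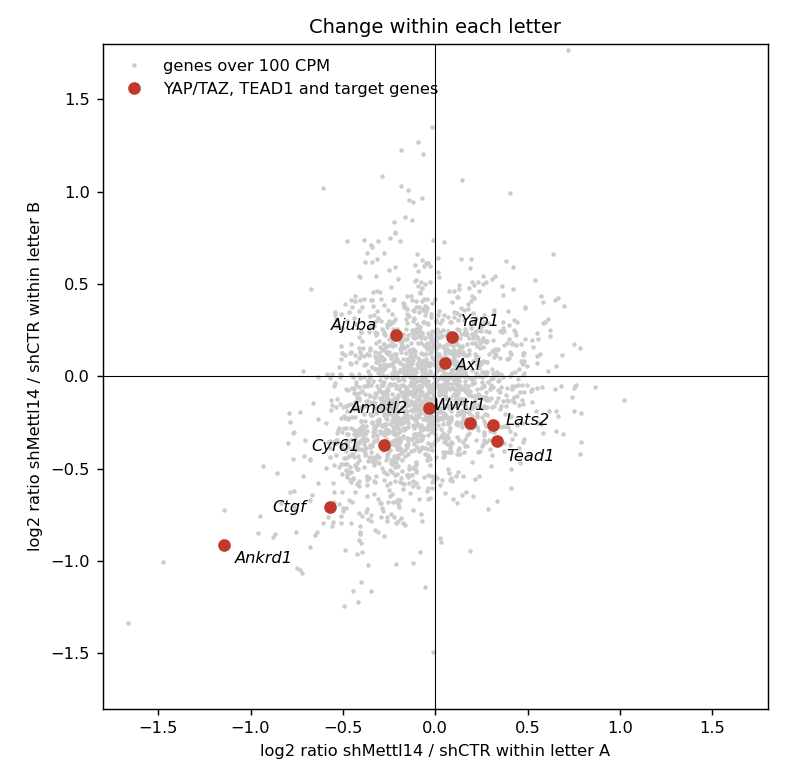
The horizontal axis is the log2 ratio of shMettl14 to shCTR within letter A and the vertical axis the same within letter B; red points are the 10 genes and light grey points the genes with a mean of at least 100 CPM, of which 3 lie outside the axes. *Ankrd1* (−1.15 and −0.91) and *Ctgf* (−0.57 and −0.71) lie at the lower left edge, and *Tead1*, *Wwtr1* and *Lats2* lie together with ratios of opposite sign in the 2 letters.

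The remaining Hippo pathway was described with a list of 28 genes, of which 26 were tested while the TEAD cofactor genes *Vgll1* and *Vgll2* did not pass the filter on low counts. In the main test none of the 26 passed an adjusted p of 0.05 or an unadjusted p of 0.05. The edgeR fit with no filter gave *Stk3* an unadjusted p of 0.026. A higher mean with shMettl14 was found for 17 genes and a lower one for 9, with a median log2 fold change of 0.11. Within both letters 10 genes (38.5%) were higher and 2 (7.69%) lower, and the groups did not overlap for 4 higher genes (15.4%) and 1 lower gene (3.85%). Over all tested genes the shares within both letters were 30% higher and 27.7% lower, and those without overlap were 14.7% and 13.3%. Among genes over 100 CPM 16.6% were higher and 42% lower within both letters. Many of the 26 genes had fewer than 100 CPM, so that set is not matched to them in level.

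In the kinase cassette, *Stk3* (MST2, a kinase that activates LATS) had 56.4 and 91.6 CPM in shCTR A and B and 43.4 and 48.2 CPM in shMettl14 A and B. Both shMettl14 values were below both shCTR values, a difference of −0.69 on the log2 scale with a standard error of 0.29 and an unadjusted edgeR p of 0.064. It ranged from −0.99 without shCTR A to −0.30 without shCTR B. *Mob1b*, which encodes a LATS cofactor, had 54.4 and 67.8 CPM in shCTR and 73.5 and 84.0 CPM in shMettl14, a log2 fold change of 0.37 (standard error 0.22) that was 0.22 without shCTR A. *Wwc2*, a KIBRA paralog that acts upstream of LATS, had 200 and 211 CPM in shCTR and 241 and 250 CPM in shMettl14, a log2 fold change of 0.26 (standard error 0.18), and 7.22% of its exon bases overlap *Cldn22* on the other strand. The paralog of *Lats2*, *Lats1*, had a log2 fold change of 0.23 (standard error 0.29) and became −0.07 without shCTR A. The angiomotin genes *Amot* (0.13, standard error 0.28) and *Amotl1* (0.09, standard error 0.26) differed by less than their standard errors.

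A further 16 genes, the remainder of a published signature of YAP/TAZ target genes that also holds several of the genes above, were all tested. In the main test none passed an adjusted p of 0.05 or an unadjusted p of 0.05. Of the 16 genes 7 were higher and 9 lower, and the median log2 fold change was −0.07. Within both letters 5 genes (31.2%) were higher and 5 (31.2%) lower, and groups without overlap were found for 2 higher genes (12.5%) and 4 lower genes (25%). Over all tested genes these shares were 30% and 27.7% within both letters and 14.7% and 13.3% without overlap, and over genes above 100 CPM 16.6% and 42%, and 5.56% and 22.8%. *Arhgef17* had 204 and 206 CPM in shCTR and 174 and 148 CPM in shMettl14, a log2 fold change of −0.35 (standard error 0.20) that was −0.23 without shMettl14 B. *Tgfb2*, the TGF-β2 ligand gene, had 265 and 297 CPM in shCTR and 247 and 209 CPM in shMettl14, a log2 fold change of −0.30 (standard error 0.20) that was −0.18 without shMettl14 B. *F3* (tissue factor) had 248 and 82.1 CPM in shCTR and 190 and 73.6 CPM in shMettl14, so its letters stood much further apart than its hairpins. Its log2 fold change of −0.32 (standard error 0.68) became 0.69 without shCTR A and 0.20 without shMettl14 B.

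**Figure D4:**
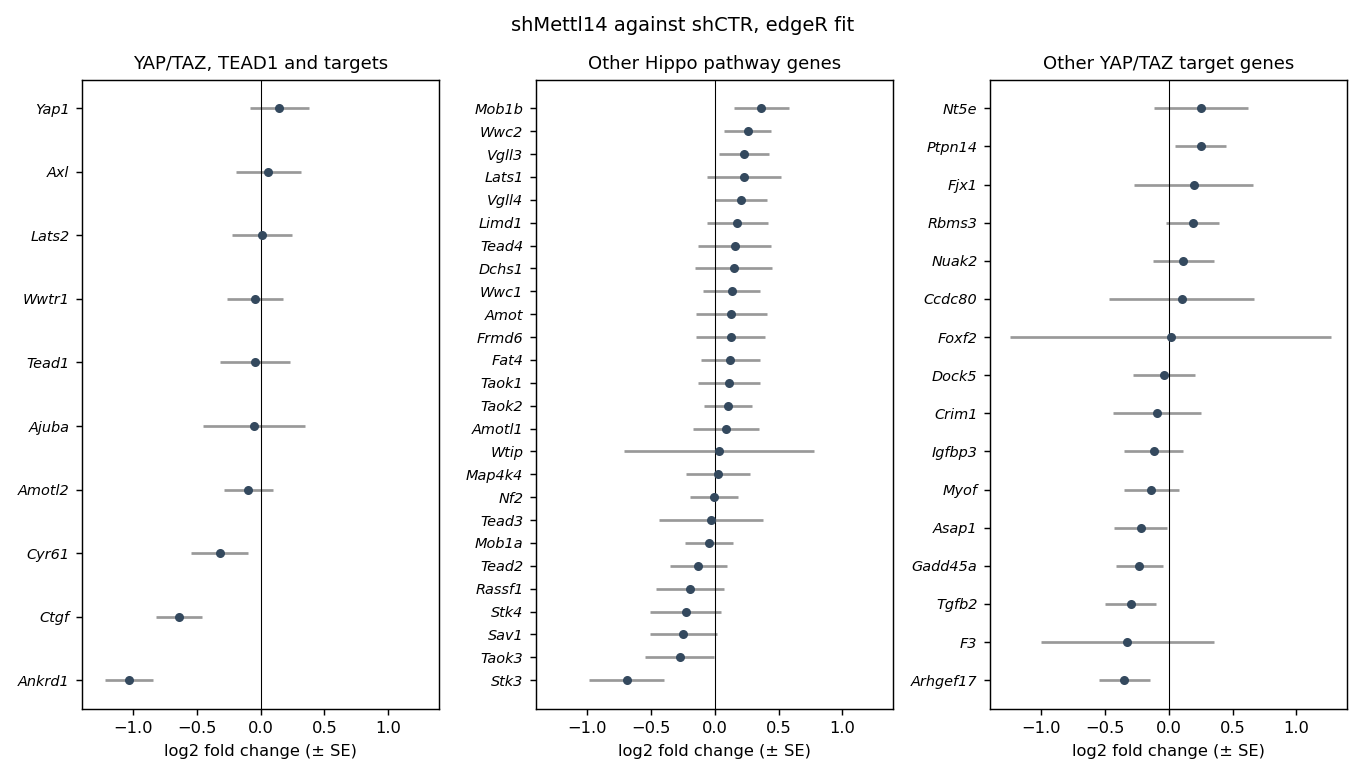
Points are log2 fold changes of shMettl14 against shCTR from the edgeR fit and bars are standard errors, with the 10 genes on the left, 26 other Hippo pathway genes in the middle and 16 other YAP/TAZ target genes on the right. *Ankrd1* (−1.03) and *Ctgf* (−0.64) lie furthest below 0 among the target genes, and *Stk3* (−0.69) among the pathway genes.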

How the data were processed

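Total RNA of primary mouse VSMCs was poly-A enriched, made into stranded paired-end libraries and sequenced by the authors, who aligned the reads to mm10 (GRCm38.p6) using STAR. Reads on each gene were then counted by featureCounts, and the deposited table holds these raw counts for 4 libraries. How reads on overlapping genes or on several places were treated was not given in the sources used here. Library totals were 114343653 to 124815868 counts, so the 3 counts that a count of 0 leaves possible were 0.0240 to 0.0262 CPM. This limit covers counting error only.

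Groups came from the titles. The main test was edgeR 4.0.16 in R 4.3.3 with TMM factors, filterByExpr (18916 genes), robust quasi-likelihood and Benjamini-Hochberg adjustment over all tested genes, without a block. A standard error is the size of a log2 fold change over the root of its F statistic. Within-letter ratios used log2 CPM with a prior count of 2. Alternatives were DESeq2 1.42.0, RLE and upper-quartile factors, no filter, a minimum of 10 counts per library, a replicate block, each library left out and, for the ratios, library totals and a prior count of 0.5. The fits were also run on simulated counts in which all genes shared the same dispersion. Those counts are simpler than these data, so that run does not show how well the fits detect changes here. Lengths and overlaps came from GENCODE M21, and the Ensembl release that the study names for its mapping was not used for them. Python 3.11.15 did the remaining steps.

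The genes, lists and tests were chosen with earlier results of these data known. Besides the 10 genes and *Mettl14*, the rule named the paralogs of *Tead1*, *Lats2* and *Amotl2*, the CCN family and, from the Hippo pathway and other target lists, the 3 genes with the largest log2 fold change at a mean of at least 1 CPM and the same sign in both letters. Planned searches of protein words were not run, since no protein table was used here.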

Additional observations from a re-analysis of the deposited data

How the results depend on the processing

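None of the 10 genes had an adjusted p under 0.05 in any fit, and neither did any gene of the 2 further lists. Over all genes the count at an adjusted p under 0.05 was 0 in edgeR (315 at an unadjusted p under 0.05), 5 with DESeq2 and 9 with the replicate block. With each library left out it ranged from 0 to 1, the 1 gene being *Alb* without shCTR B. That gene had 1345 counts in shCTR A and at most 2 in the others. The replicate block, which takes the letters as pairs, put the adjusted p at 0.065 for *Ankrd1*, 0.23 for *Ctgf* and 0.52 for *Cyr61*, against 0.49 to 1 for *Ankrd1* in the other fits. At an unadjusted p under 0.05 it gave *Ankrd1* (5.9e-05) and *Ctgf* (0.0021), as the fit without the block did, and also *Stk3*, *Mob1b*, *Arhgef17* and *Nov*, among 1941 of 18916 genes. Of the 1997 genes over 100 CPM it gave 269 lower and 42 higher. Deviations of libraries of the same letter correlated at 0.578 across genes. There are only 2 pairs, and the sources used here do not say what the letters stand for, so the block is given only as an alternative. In fits with 1 library in a group that library is assumed to vary like the other group.

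Directions of log2 fold changes differed from the reported ones for *Lats2* with RLE factors (−0.0015) and for *Ajuba* (0.0040) and *Tead3* (0.012) with the replicate block. With each library left out, *Yap1* ranged from −0.035 to 0.35, *Wwtr1* from −0.22 to 0.15, *Tead1* from −0.34 to 0.32, *Axl* from −0.14 to 0.29, *Amotl2* from −0.20 to 0.0039, *Lats2* from −0.20 to 0.26 and *Ajuba* from −0.47 to 0.53. *Tead2* ranged from −0.30 to 0.071, *Tead3* from −0.43 to 0.53, *Lats1* from −0.074 to 0.61, *Amot* from −0.090 to 0.39 and *Amotl1* from −0.17 to 0.39. *Nov* ranged from −0.026 to 1.72, *Wisp1* from −0.17 to 0.30, *Wisp2* from −0.65 to 1.23, *Wisp3* (not tested with a minimum of 10 counts) from −1.27 to 0.019 and *F3* from −1.17 to 0.69. *Ankrd1*, *Ctgf* and *Cyr61* kept their direction in all of these fits. Scaling by library totals raised the ratios of all genes by 0.080 within A and 0.141 within B. It left *Ankrd1* at −1.07 and −0.77, *Ctgf* at −0.49 and −0.56 and *Cyr61* at −0.20 and −0.23. A prior count of 0.5 moved none of the ratios by more than the spread between letters.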

Other observations

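The gap between letters A and B was larger with shCTR than with shMettl14 for 7 of the 10 genes (median absolute log2 gap 0.377 with shCTR and 0.168 with shMettl14) and for 65.2% of all tested genes (0.511 and 0.339). It was widest with shCTR for *Ajuba* (−0.98 for B minus A) and *Tead1* (0.67), and narrowest for *Ctgf* (0.0016). *Yap1* and *Wwtr1* differed between the letters of shCTR in opposite directions (−0.38 and 0.38), and *Axl* differed between them by about the same amount with shCTR (−0.41) as with shMettl14 (−0.39). These gaps rest on 1 library each and were not tested.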
